A study of Mus musculus with 16 samples.

Results

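The comparison described here sets lungs of wild type mice given diphtheria toxin (DT) against lungs of wild type mice given saline (PBS). Its members were the samples titled as wild type at 12 months with DT or with PBS, which make up 4 of the 16 arrays of the series, 2 for each treatment. All 4 samples were labelled as female mice aged 12 months, and the wild type mice carried no transgene. The toxin was given intraperitoneally, 50 microgram for each kg of body weight every 2 weeks over 1 month, and the PBS mice were injected on the same schedule. The strain of the mice is not given in the sources used here. The rest of the series came from ARF-DTR mice, which carry a DT receptor driven by the promoter of Arf, a product of the Cdkn2a locus. Of these, the 4 samples given PBS and the 4 given DT at 12 months, also female and injected in the same way, are used below for comparison. The wild type arm was included to show what the toxin does to lung RNA without the transgene. The labels do not say that each sample came from a separate mouse, so each p-value is set against a spread between samples that could be technical.

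Diphtheria toxin enters a cell through membrane-bound HB-EGF, the product of Hbegf, and its catalytic chain then modifies diphthamide, a changed histidine of elongation factor 2, which stops protein synthesis. The mouse form of HB-EGF binds the toxin poorly, which is why mice without an added receptor are used as the toxin control. Whole lung RNA mixes epithelium, endothelium, stroma and resident and circulating immune cells, so fewer cells of a type and less RNA per cell cannot be told apart in any value below.

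RNA of whole homogenised lung was labelled with Cy3 and hybridised to single-colour Agilent arrays, 1 array per sample. Levels are log2 signal relative to the 75th percentile of the array, which lay at 614 and 678 intensity units on the PBS arrays and at 669 and 705 on the DT arrays. Between 55.6% (DT replicate 1, the lowest of the 16 arrays) and 60.1% of probes were well above background on the 4 arrays. The median absolute log2 difference over genes was 0.129 between the PBS replicates, 0.161 between the DT replicates and 0.167 to 0.177 between arrays of different treatment. All 4 arrays lay in the same row of the same slide, PBS in columns 1 and 2 and DT in columns 3 and 4, so the position on the slide and the treatment cannot be told apart. Markers of alveolar type 2 cells (9 of 9), alveolar type 1 cells (7 of 7), club cells (4 of 4) and ciliated cells (6 of 6) were above background on all 4 arrays. The free text description goes against the other labels for 3 of the 4 samples: it names DT for PBS replicate 1 and does not name it for either DT replicate. Title, source and treatment name the same group for each of the 4 and were used.

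Few genes differed between the treatments. Of 25574 genes tested, 46 passed an adjusted p under 0.05 (limma over all 16 arrays, Benjamini-Hochberg), which is 0.18%. Of these, 15 rose with DT (0.0587% of all genes) and 31 fell (0.121%). By the signals as measured, 9 of the rises and 20 of the falls were at least 2-fold. This counts changes from or to levels below background, for some of which the lower bound was under 2-fold or absent. Without adjustment, 3257 genes (12.7%) had a p under 0.05, 1338 of them higher (5.23%) and 1919 lower (7.5%). The median change of all genes was -0.02 on the log2 scale. Of the 46 genes, 30 have a regular gene symbol and 27 were above background on all 4 arrays. A further 16 were below background on both arrays of the dimmer group, where a change has at most a lower bound. The calls rest on the spread of the 16 arrays: over the 4 wild type arrays alone limma called 0 genes (2532 with an unadjusted p under 0.05), over the 8 arrays of that slide it called 3 higher and 4 lower, and an exact permutation of 2 against 2 samples cannot give a two-sided p below 0.333. Leaving out 1 array also moved the counts, to 13 higher and 61 lower without PBS replicate 1, 9 and 79 without PBS replicate 2, 53 and 74 without DT replicate 1, and 128 and 104 without DT replicate 2. With the median of each array in place of its 75th percentile, 12 were higher and 16 lower.

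Plaur, the urokinase receptor, which focuses plasminogen activation at the cell surface and is used as a surface marker of senescent cells, rose with DT. Its log2 level was 2.53 and 2.56 on the PBS arrays and 3.12 and 3.23 on the DT arrays. Both DT arrays lay above both PBS arrays, by 0.63 ± 0.10 (SE, n = 2 and 2, limma, adjusted p = 0.0283). Glb1, which encodes the lysosomal beta-galactosidase behind the staining used to find senescent cells, was at 1.13 and 0.94 with PBS and at 1.50 and 1.49 with DT. The groups did not overlap, and the rise was 0.46 ± 0.08 (limma, adjusted p = 0.0425). Ch25h, which makes 25-hydroxycholesterol in activated macrophages, rose from -0.32 and -0.17 to 0.92 and 0.67, a change of 1.05 ± 0.17 (limma, adjusted p = 0.0376). Coq10b, a coenzyme Q binding protein of the mitochondrion, rose from 0.65 and 1.06 to 1.52 and 1.93 by 0.87 ± 0.15 (limma, adjusted p = 0.0376), and a further probe of the gene gave 0.98 ± 0.13. These 4 genes were bright on every array, so their values are measured on both sides. Plaur and Glb1 were also the only genes of the 65 lists used here that passed. The summed level of 7 alveolar macrophage markers moved in the same direction (278 and 257 with PBS, 507 and 366 with DT), and its part in these rises was not tested.

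The 250 bases before the start of these 4 genes are shown because they rose among the brightest genes that passed. They are RefSeq sequences of the build GRCm38.p6, written 5′ to 3′ along the gene, with matches to 4 motifs in capitals. A start of a gene was shown only if its stretch held a match.
Plaur: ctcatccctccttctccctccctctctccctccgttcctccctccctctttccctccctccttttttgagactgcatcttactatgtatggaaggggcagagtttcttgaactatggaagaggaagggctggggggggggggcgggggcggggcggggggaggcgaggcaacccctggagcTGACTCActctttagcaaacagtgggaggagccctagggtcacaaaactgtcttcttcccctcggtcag
Glb1: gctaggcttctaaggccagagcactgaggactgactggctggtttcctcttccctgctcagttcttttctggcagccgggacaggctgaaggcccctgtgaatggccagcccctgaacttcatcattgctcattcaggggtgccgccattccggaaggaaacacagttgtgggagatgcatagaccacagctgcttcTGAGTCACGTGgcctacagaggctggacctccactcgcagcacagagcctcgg
Ch25h: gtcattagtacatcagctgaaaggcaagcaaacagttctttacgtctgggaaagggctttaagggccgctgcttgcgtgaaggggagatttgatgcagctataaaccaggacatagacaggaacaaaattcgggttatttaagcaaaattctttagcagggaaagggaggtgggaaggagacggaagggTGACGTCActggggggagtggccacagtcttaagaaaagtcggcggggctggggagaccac
Coq10b: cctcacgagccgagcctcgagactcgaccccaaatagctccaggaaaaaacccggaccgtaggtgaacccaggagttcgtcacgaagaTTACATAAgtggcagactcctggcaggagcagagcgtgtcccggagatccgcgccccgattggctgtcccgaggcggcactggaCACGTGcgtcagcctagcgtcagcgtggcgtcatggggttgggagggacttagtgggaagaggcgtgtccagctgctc
The stretches lie at chr7:24462233-24462482 (Plaur, plus strand), chr9:114400828-114401077 (Glb1, plus strand), chr19:34475149-34475398 (Ch25h, minus strand) and chr1:55052520-55052769 (Coq10b, plus strand). Both strands were searched for the E-box CACGTG bound by clock and other helix-loop-helix factors, the D-box TTATGNAA, the AP-1 motif TGANTCA and the cAMP response element TGACGTCA. These letters occur before 6.02%, 3.07%, 6.75% and 1.55% of the 32851 starts in the table, and before at least 1 start of 6.86%, 3.63%, 7.82% and 1.77% of its 27025 genes. Plaur holds 1 AP-1 match that begins 69 bases before the start, and Ch25h holds 1 cAMP response element 61 bases before it. In Glb1 an AP-1 match and an E-box overlap, beginning 53 and 48 bases before the start. In Coq10b an E-box begins 78 bases before the start and a D-box, on the other strand, 162 bases before it. Of the 46 genes that passed, 26 are in the table, and 3 of them hold the E-box (Coq10b, Glb1 and Nkx1-2), 2 the D-box, 4 the AP-1 motif (Glb1, Impg2, Palld and Plaur) and 1 the cAMP response element. A match is a description of the letters and not a bound site.

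Among the rises, 3 genes have roles in cell division. Sgo2a, a shugoshin that guards cohesion at centromeres, was not well above background on either PBS array (-5.31 and -5.28) and lay at -3.31 and -3.87 with DT. It was at least 3.12-fold higher with DT (adjusted p = 0.0425, limma). Here and below a bound sets the brighter group against, on each array of the dimmer group, the lowest signal that counted as well above background or the gene's own signal, whichever was higher. Gas2l3, a linker of actin and microtubules at the midbody, rose from -3.47 and -3.60 to -2.09 and -2.70 by 1.14 ± 0.18 (limma, adjusted p = 0.0315). Its further probe gave 0.46 ± 0.21. E2f7, a repressor of E2F targets, rose from -3.08 and -3.48 to -2.34 and -2.13 by 1.05 ± 0.17 (limma, adjusted p = 0.0370), while a further E2f7 probe gave 0.07 ± 0.18, so the 2 probes disagree. These 3 genes were not on the list of mitosis and replication genes and were not chosen as a group.

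On that list 0 of 22 measured genes passed. The median of the list was 0.60 against -0.02 for all genes, and 10 members had an unadjusted p under 0.05, all higher (5.23% of all genes were higher at that level). Both DT arrays lay above both PBS arrays for 16 of the 22 and below for 0, against 18.8% and 24.7% of all genes. The member with the smallest p was Bub1b, a spindle checkpoint kinase, at -2.13 and -2.17 with PBS and at -1.44 and -1.55 with DT (0.66 ± 0.19, adjusted p = 0.170, limma). Aurka, a spindle pole kinase, differed by 0.76 ± 0.22, the S phase cyclin Ccna2 by 0.81 ± 0.26, and the mitotic cyclin Ccnb2 by 0.58 ± 0.22. The median was 0.38 without DT replicate 2 and 0.65 without DT replicate 1. In ARF-DTR lungs the median of the same genes was 0.22.

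The other rises were spread over unrelated functions. Mark1, a kinase that loosens microtubule-associated proteins, was at -2.05 and -2.14 with PBS and at -1.31 and -1.48 with DT (0.70 ± 0.10, limma, adjusted p = 0.0248). Plekhf1, a phosphoinositide-binding protein of endosomes, was at -1.37 and -1.34 with PBS and at -0.60 and -0.42 with DT (0.84 ± 0.14, limma, adjusted p = 0.0339). Atp8b1, a phospholipid flippase, was at -2.64 and -2.65 with PBS and at -1.97 and -1.94 with DT (0.69 ± 0.11, limma, adjusted p = 0.0318). For each of these 3 genes the DT arrays lay closer to each other than to either PBS array, which the choice of the genes by these arrays favours. Pgbd5, derived from a piggyBac transposase, and Impg2, a proteoglycan of the retinal matrix, were not well above background on the PBS arrays and were at least 1.99-fold and 1.89-fold higher with DT. Duox1, an oxidase of the airway epithelium, passed too but was not well above background on any of the 4 arrays and has no fold. To fill the named rises to 15, the next genes by p were Plcxd2 (0.64 ± 0.12), Zmynd15 (0.72 ± 0.13) and Wee1 (0.79 ± 0.14), which missed the threshold with adjusted p of 0.052, 0.052 and 0.054 (limma).

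**Figure D1:**
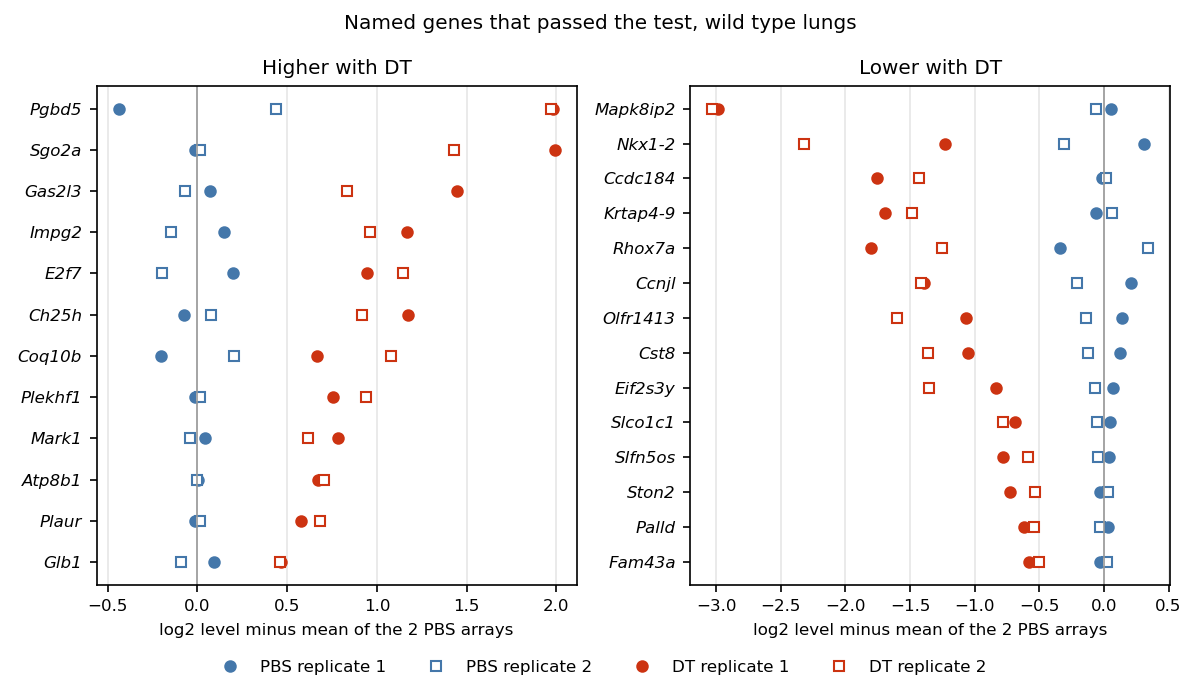
Log2 level of each named gene that passed, minus the mean of its 2 PBS arrays, in each of the 4 wild type arrays (blue, PBS; red, DT; filled circles, replicate 1; open squares, replicate 2), with 12 genes higher on the left and 14 lower on the right. No gene's DT points reach its PBS points, which was a condition for naming a gene. Levels below background, such as Mapk8ip2 with DT or Pgbd5 with PBS, are plotted as measured.

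The largest named fall was that of Mapk8ip2, a scaffold of the JNK pathway best known from neurons. Its level was -2.44 and -2.56 on the PBS arrays, and with DT it was not well above background on either array (-5.49 and -5.53). It was at least 5.80-fold lower with DT (adjusted p = 0.0091, limma). Ccdc184, a coiled-coil protein, was above background on all 4 arrays and fell from -1.57 and -1.54 to -3.31 and -2.99, by 1.59 ± 0.20 (limma, adjusted p = 0.0091). Ccnjl, a protein related to cyclin J, fell from -1.83 and -2.25 to -3.43 and -3.45, by 1.40 ± 0.19 (limma, adjusted p = 0.0134). In each of these 3 genes the DT arrays lay closer to each other than to either PBS array. The choice of the genes by these arrays favours this, and for Mapk8ip2 both DT values were below background. Mapk8ip2 passed in 15 of the 17 settings tried, Ccdc184 in 14 and Ccnjl in 12. The settings reuse the wild type arrays by which these genes were chosen, so the counts are no separate support. Over the 4 wild type arrays alone 0 genes passed.

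Other named falls were of genes better known from other tissues. Nkx1-2, a homeobox gene, was at least 1.72-fold lower and not above background with DT. Rhox7a, from the X-linked reproductive homeobox cluster, fell from -2.72 and -2.04 to -4.18 and -3.63, and as a member of a family of near-identical copies its probe may read more than 1 gene. Cst8, a cystatin of the reproductive tract, was the brightest of these, at 2.80 and 2.56 with PBS and at 1.63 and 1.32 with DT (fell by 1.20 ± 0.18, limma, adjusted p = 0.0256). Krtap4-9, a hair keratin-associated protein, and Olfr1413, an olfactory receptor, were at least 2.15-fold and 1.02-fold lower with DT, both from levels near background. Of a list of 11 olfactory and vomeronasal receptors, which have no known role in the lung, 1 was measured and it did not pass.

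The remaining named falls were of genes with unrelated roles. Palld, an actin-bundling protein of stress fibres, fell from 2.39 and 2.33 to 1.74 and 1.82, by 0.58 ± 0.09 (limma, adjusted p = 0.0370). Fam43a, of unsettled function, fell from 0.90 and 0.96 to 0.35 and 0.43, by 0.54 ± 0.09 (limma, adjusted p = 0.0376). Slco1c1, a thyroid hormone transporter of brain endothelium, fell from -3.62 and -3.72 to -4.36 and -4.45, by 0.74 ± 0.09 (limma, adjusted p = 0.0101), with 1 of the 2 DT arrays well above background. Ston2, an endocytic adaptor, fell by 0.63 ± 0.11 and Slfn5os, an antisense RNA, by 0.68 ± 0.12 (limma, adjusted p = 0.0460 for both). A further Ston2 probe gave 0.13 ± 0.43, so the fall of Ston2 rests on 1 probe. The fall of Eif2s3y, a translation factor gene of the Y chromosome, by 1.09 ± 0.17 (limma, adjusted p = 0.0256) needs a caution of its own. Its probe was well above background on all 16 arrays of these labelled females, while those of Ddx3y and Kdm5d were on 0 arrays, the 2 Uty probes on 3 and on 1, and those of Xist on 16.

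The genes on which the toxin acts did not pass in either direction. Hbegf was at 2.72 and 2.77 with PBS and at 2.56 and 2.36 with DT, a difference of -0.29 ± 0.18 (adjusted p = 0.545, limma). Eef2, which encodes elongation factor 2, was at 6.46 and 6.26 with PBS and at 6.51 and 6.63 with DT, a difference of 0.22 ± 0.10 (adjusted p = 0.403, limma). Both DT arrays of Hbegf lay below and both of Eef2 above the PBS arrays, as for 24.7% and 18.8% of all genes. Of the genes that build diphthamide, the differences ran from -0.35 ± 0.10 for Dph3 to 0.24 ± 0.11 for Dph2, with Dph7 at -0.26 ± 0.10, Dph1 at -0.20 ± 0.11, Dph5 at -0.14 ± 0.11, Dph6 at -0.06 ± 0.08 and Dnajc24 at 0.06 ± 0.09. Further Dph3 probes gave -0.16 ± 0.18 and -0.21 ± 0.14. The median of the 8 genes that hold diphthamide or build it was -0.10.

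Genes that respond to blocked translation, lack of amino acids or DNA damage were placed in both directions. Of 17 genes of the integrated stress response 0 passed and the median was 0.02. Atf5, a stress factor controlled at translation, was at 5.60 and 5.53 with PBS and at 4.81 and 5.03 with DT (-0.65 ± 0.15, adjusted p = 0.102, limma). Atf3, an early stress factor, was at 0.65 and 1.03 with PBS and at 1.84 and 1.54 with DT (0.85 ± 0.20, adjusted p = 0.111, limma). Neither gene had overlapping groups, and the 2 differences were of opposite sign. Of all genes, 18.8% had both DT arrays above both PBS arrays and 24.7% below, and these 2 genes were named by their small p. Ddit3, which encodes the cell death factor CHOP, was at -0.35 ± 0.10 and the metabolic brake Sesn2 at 0.24 ± 0.07. Of 17 targets of p53, 0 passed and the median was 0.11, with the death receptor Tnfrsf10b at 0.58 ± 0.17 and the stress cytokine Gdf15 at 0.67 ± 0.24. Of 21 apoptosis regulators, 0 passed and the median was -0.01. The heat shock proteins had a median of -0.09 over 11 genes and the chaperones of the endoplasmic reticulum one of -0.08 over 15, and 0 passed in either.

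The cell cycle inhibitors of the senescence program did not pass either. Cdkn2a, which encodes p16 and Arf and whose promoter drives the transgene in the other mice, lay at -2.18 and -1.52 with PBS and at -1.03 and -2.05 with DT, so the groups overlapped (0.31 ± 0.39, adjusted p = 0.812, limma). Its neighbour Cdkn2b, which encodes p15, lay at 2.99 and 2.98 with PBS and at 2.56 and 2.55 with DT, with 4 tightly placed values but an adjusted p of 0.118 (-0.43 ± 0.10, limma). Cdkn1a, which encodes p21, was 0.28 ± 0.16 higher (adjusted p = 0.502, limma). Of 18 inhibitors and senescence regulators, Glb1 was the 1 that passed, and the median was 0.06. Among 35 secreted factors of senescent cells, Plaur alone passed, and the median was 0.20, or 0.03 without PBS replicate 1. There the IGF-binding proteins Igfbp3 (-0.78 ± 0.18) and Igfbp6 (-0.57 ± 0.14) were lower and the macrophage elastase Mmp12 (2.04 ± 0.55) higher with DT without passing (adjusted p of 0.103, 0.118 and 0.150, limma).

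Of 20 genes of the circadian clock 0 passed, and members lay apart between the treatments in both directions. In the clock, a dimer of the activator Arntl with Clock or Npas2 switches on the Per, Cry and Ciart repressors and output genes such as Dbp and Tef through E-boxes, and the repressors then shut it off in a daily cycle. The hour at which the lungs were taken is not given in the sources used here. Arntl was at -0.09 and -0.29 with PBS and at -1.28 and -1.44 with DT (-1.17 ± 0.22, adjusted p = 0.056, limma). Ciart was at -2.37 and -2.12 with PBS and at -1.21 and -0.79 with DT (1.24 ± 0.28, adjusted p = 0.096, limma). Per1 was at 3.09 and 3.41 with PBS and at 4.21 and 4.46 with DT (1.08 ± 0.27, adjusted p = 0.126, limma). A further Per1 probe, above background on 2 of the 4 arrays, gave -0.16 ± 0.26, so the probes disagree. By the probe used for each of the 3 genes, the distance between treatments was several times the distance between replicates. The 3 genes were put first by their values on these arrays, which favours such a distance. Both DT arrays lay above both PBS arrays for 14 of the 20 genes and below for 4 (Arntl, Npas2, Clock and Nr1d1). Over all genes these shares were 18.8% and 24.7%. At an unadjusted p under 0.05, 8 clock genes were higher and 3 lower, against 5.23% and 7.5% of all genes. The median was 0.35 and stayed between 0.32 and 0.40 when any 1 of the 4 arrays was left out.

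The further members named here are given whatever their values. The repressors Per2 and Per3 were 1.02 ± 0.26 and 0.75 ± 0.27 higher with DT, while Cry1 (0.16 ± 0.19) and Cry2 (0.03 ± 0.18) differed by less than their error. The activator partners Npas2 and Clock were at -0.83 ± 0.24 and -0.27 ± 0.09, and Npas2 was near background. Output genes were higher, with Tef at 0.47 ± 0.17, Dbp at 0.53 ± 0.30, Hlf at 0.35 ± 0.26, Nfil3 at 0.43 ± 0.17 and Wee1, a kinase that holds cells before mitosis, at 0.79 ± 0.14. The nuclear receptors of the second loop were mixed, with Nr1d1 at -0.41 ± 0.24, Nr1d2 at 0.34 ± 0.18 and Rora at 0.10 ± 0.11, and Bhlhe40 and Bhlhe41 were at 0.22 ± 0.16 and 0.36 ± 0.27. In ARF-DTR lungs the DT differences of Arntl, Ciart and Per1 were -0.39, -0.48 and 0.17. For Ciart the difference between the genotypes itself had an adjusted p under 0.05 (adjusted p = 0.0248, limma). Ciart was the only clock gene for which it did, and 2.1% of all genes did. Ciart was put first by its wild type change, which enters this difference. Slide and DT cannot be told apart in the ARF-DTR lungs. Between the DT arrays of the genotypes, which share a slide, Ciart differed by -1.32 ± 0.24 (ARF-DTR minus wild type, adjusted p = 0.0267, limma). That comparison also holds the wild type DT arrays by which Ciart was chosen.

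**Figure D2:**
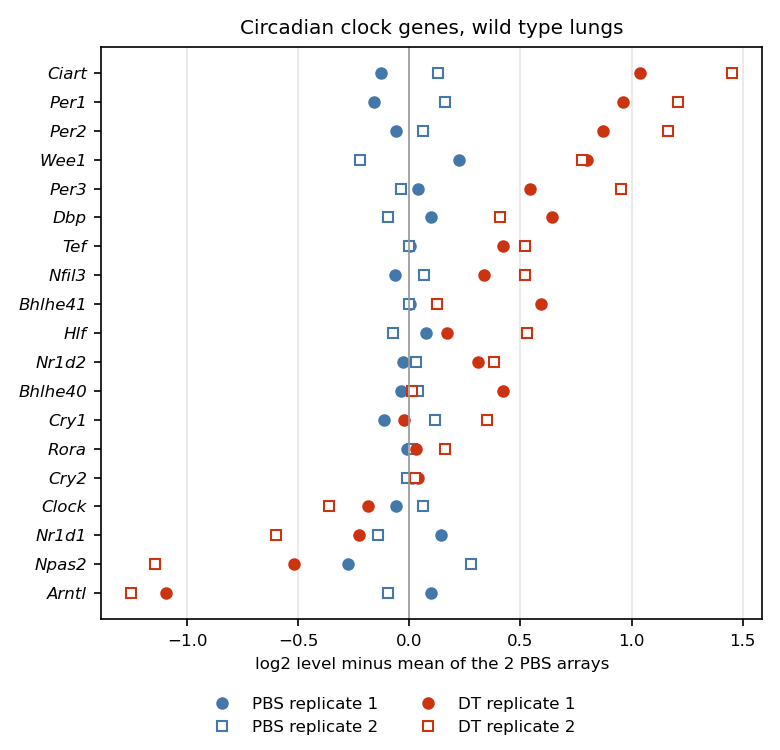
Log2 level of 19 of the circadian clock genes minus the mean of the 2 PBS arrays, in each of the 4 wild type arrays (blue, PBS; red, DT; filled circles, replicate 1; open squares, replicate 2), ordered by the difference. Ciart, Per1 and Per2 are at the top and Arntl at the bottom. In 17 of the 19 genes the red points do not overlap the blue ones (of all genes, 18.8% lay above and 24.7% below).

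The sequences before Ciart and Per1 are shown because these 2 repressors had the largest positive differences of the list and hold E-boxes.
Ciart: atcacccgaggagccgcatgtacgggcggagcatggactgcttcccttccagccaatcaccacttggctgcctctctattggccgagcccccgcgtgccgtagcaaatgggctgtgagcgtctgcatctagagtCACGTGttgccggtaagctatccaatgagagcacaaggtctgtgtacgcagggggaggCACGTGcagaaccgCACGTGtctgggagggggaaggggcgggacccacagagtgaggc
Per1: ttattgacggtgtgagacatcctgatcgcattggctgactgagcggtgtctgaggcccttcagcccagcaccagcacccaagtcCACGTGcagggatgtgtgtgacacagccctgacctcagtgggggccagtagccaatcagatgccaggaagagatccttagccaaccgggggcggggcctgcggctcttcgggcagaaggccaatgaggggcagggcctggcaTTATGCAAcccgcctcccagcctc
They lie at chr3:95882229-95882478 (minus strand) and chr11:69098699-69098948 (plus strand, 1 of the starts listed for Per1), from RefSeq, build GRCm38.p6. Ciart has 3 copies of CACGTG, beginning 116, 58 and 44 bases before the start. Per1 has 1 copy 166 bases before it and a D-box 24 bases before it. Of the 20 clock genes 16 are in the table, and 5 of them (Bhlhe41, Ciart, Cry1, Per1 and Tef) hold the E-box in this window before at least 1 start, which 6.86% of all genes do. The D-box is before 2 (Per1 and Per3).

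Targets of the glucocorticoid receptor and metallothioneins, which include Per1, were higher as well without passing (0 of 14). Both DT arrays lay above both PBS arrays for 9 of the 14 and below for 1, against 18.8% and 24.7% of all genes. The median was 0.31. Tsc22d3, an anti-inflammatory leucine zipper protein induced by steroids, was at 4.75 and 4.87 with PBS and at 5.39 and 5.56 with DT (0.67 ± 0.18, adjusted p = 0.158, limma). Mt1, a metal-binding protein induced by steroids and zinc, was at 5.54 and 5.31 with PBS and at 6.32 and 5.99 with DT (0.73 ± 0.21, adjusted p = 0.163, limma). A further Mt1 probe gave 0.45 ± 0.55. Lcn2, an iron-scavenging lipocalin of inflammation, was 0.95 ± 0.30 higher. Mt1 differed by 0.76 in ARF-DTR lungs too, where it passed, while Tsc22d3 differed by 0.10 there.

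**Figure D3:**
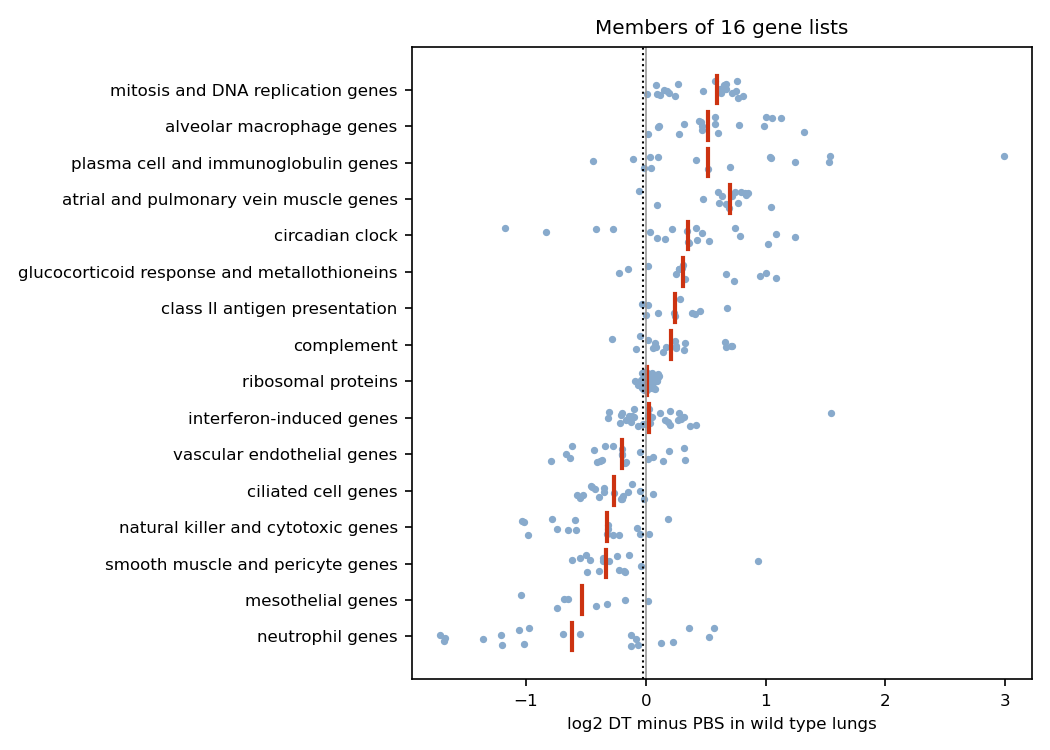
Log2 difference between DT and PBS in wild type lungs for the members of 16 gene lists (points, 1 per gene, with vertical jitter) and the median of each list (red bars); the dotted line is the median of all genes. Medians run from 0.71 for atrial muscle genes to -0.62 for neutrophil genes, and in none of these lists did any gene pass.

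Immune cell genes differed in both directions, none of them past the threshold. Genes of resident alveolar macrophages, the phagocytes of the air space that clear surfactant, were higher with DT. Of 18, both DT arrays lay above both PBS arrays for 14 and below for 0, against 18.8% and 24.7% of all genes. At an unadjusted p under 0.05, 10 were higher (5.23% of all genes), and the median was 0.52. Cd68, a lysosomal membrane protein, was at 3.16 and 3.02 with PBS and at 4.59 and 3.58 with DT (0.99 ± 0.27, adjusted p = 0.158, limma). Itgax, which encodes CD11c, was at 2.94 and 2.90 with PBS and at 4.41 and 3.44 with DT (1.01 ± 0.28, adjusted p = 0.160, limma). Both genes were higher on DT replicate 1 than on DT replicate 2. Atp6v0d2, a proton pump subunit, and Pparg, the factor that specifies these cells, were 1.13 ± 0.40 and 0.46 ± 0.17 higher. The median was 0.38 without DT replicate 1 and 0.84 without DT replicate 2. In ARF-DTR lungs the median of the list was 0.55 and 10 of the 18 genes passed (29.3% of all genes).

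Plasma cell and immunoglobulin genes were also higher, with a median of 0.52 over 15 genes. Edem2, of the protein quality control in the endoplasmic reticulum, was at -1.64 and -1.74 with PBS and at -1.31 and -1.25 with DT (0.42 ± 0.11, adjusted p = 0.140, limma). The heavy chain probe Ighg was at -3.63 and -2.50 with PBS and at -0.62 and 0.48 with DT (2.99 ± 1.05, adjusted p = 0.245, limma). The PBS replicates of Ighg were themselves more than 1 log2 unit apart, and genes of this family share sequence. Irf4, a factor of the plasma cell fate, was 0.70 ± 0.30 higher and Prdm1, another, was lower (-0.44 ± 0.19). Class II antigen presentation genes had a median of 0.25, with both DT arrays higher for 7 of 11 (18.8% of all genes). Complement genes had a median of 0.21, with C1qa 0.67 ± 0.21, C1qb 0.72 ± 0.26 and C1qc 0.66 ± 0.26 higher. The complement median was 0.12 without DT replicate 1 and 0.01 with the columns of the slide as a term.

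Natural killer and cytotoxic genes were lower. Both DT arrays lay below both PBS arrays for 11 of 17 and above for 1, against 24.7% and 18.8% of all genes. The median was -0.32. Ncr1, a receptor that defines natural killer cells, was at -2.51 and -2.23 with PBS and at -3.09 and -3.71 with DT (-1.03 ± 0.33, adjusted p = 0.209, limma). Klrb1c, which encodes NK1.1, was at -0.85 and -0.74 with PBS and at -1.29 and -2.28 with DT (-0.99 ± 0.37, adjusted p = 0.284, limma). Both were lowest on DT replicate 2. The granule genes Prf1 and Gzmb were at -0.27 ± 0.10 and -0.78 ± 0.35. The median was -0.55 without DT replicate 1 and -0.21 without DT replicate 2. The median of the list was 0.33 in ARF-DTR lungs, the opposite sign, and the difference between genotypes passed for 0 of the 17 genes. Among 25 T cell genes the median was 0.27, with Foxp3, the factor of regulatory T cells, 1.15 ± 0.30 higher and Tbx21, the factor shared by type 1 T cells and natural killer cells, lower (-0.68 ± 0.23). The T cell median was 0.47 without DT replicate 1 and 0.04 without DT replicate 2.

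Neutrophil genes had a median of -0.62 over 20 genes, a value that depended strongly on DT replicate 1. Mmp9, a gelatinase of neutrophil granules, was at -0.84 and -0.23 with PBS and at -2.90 and -1.59 with DT (-1.71 ± 0.53, adjusted p = 0.193, limma). Retnlg, a resistin-like protein of neutrophils, was at 3.89 and 4.46 with PBS and at 3.00 and 3.39 with DT. DT replicate 1 was the lowest array for both genes. The median of the list was -0.10 without DT replicate 1 and -1.09 without DT replicate 2. It was -0.19 with the columns of the slide as a term, chosen after seeing the data. The summed level of the 6 neutrophil markers was 319 and 357 with PBS, 79.7 on DT replicate 1 and 273 on DT replicate 2. Both DT arrays lay below both PBS arrays for 8 of the 20 genes and above for 2, against 24.7% and 18.8% of all genes. Of those 2, Fpr1, a formyl peptide receptor also found on macrophages, was 0.53 ± 0.20 higher.

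**Figure D4:**
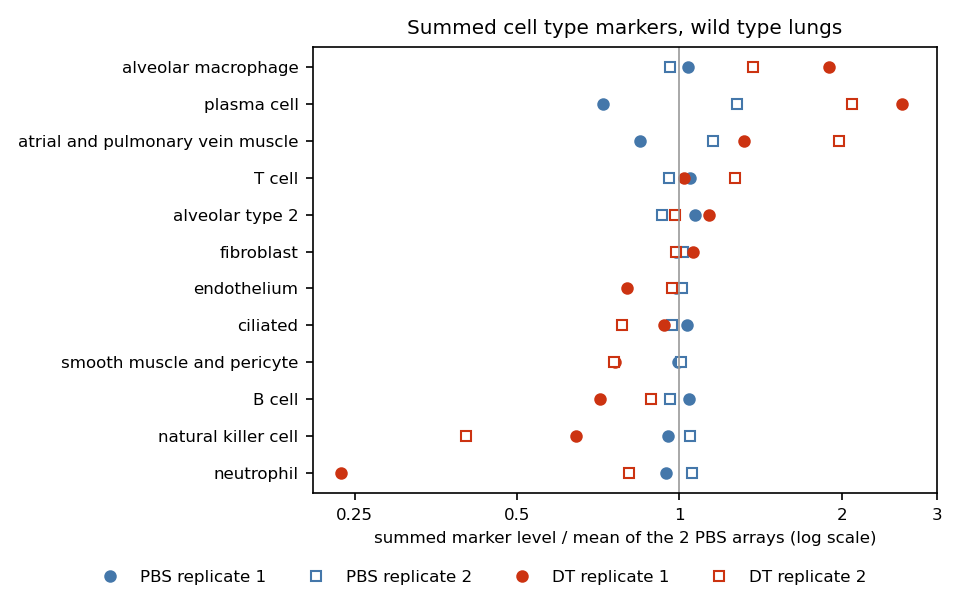
Summed linear level of the markers of 12 cell types, divided by the mean of the 2 PBS arrays (log scale), in each of the 4 wild type arrays (blue, PBS; red, DT; filled circles, replicate 1; open squares, replicate 2). Alveolar macrophage and plasma cell sums were above both PBS arrays on both DT arrays, natural killer cell sums (24.2 and 26.6 with PBS, 16.3 and 10.2 with DT) were below, and the neutrophil sum was far lower on DT replicate 1.

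Endothelial, smooth muscle, cilia and mesothelial genes had medians below zero, and 0 genes of these lists passed. Of 22 vascular endothelial genes, both DT arrays lay below both PBS arrays for 14 and above for 4 (24.7% and 18.8% of all genes). The median was -0.20. Sox18, a factor of endothelial fate, was at 2.12 and 2.07 with PBS and at 1.55 and 1.32 with DT (-0.66 ± 0.14, adjusted p = 0.083, limma). Apln, a peptide of sprouting endothelium, and Gja5, an arterial gap junction protein, were at -0.79 ± 0.20 and -0.43 ± 0.12 (a further Gja5 probe, above background on all 4 arrays, gave 0.15 ± 0.20), and Eng, a TGF-beta co-receptor, at -0.63 ± 0.20. Smooth muscle and pericyte genes had a median of -0.33, with both DT arrays below for 12 of 16 (24.7% of all genes). There Mylk, the kinase that starts contraction, was at 1.18 and 1.01 with PBS and at 0.86 and 0.55 with DT (-0.39 ± 0.12, adjusted p = 0.174, limma), while Rgs5 of pericytes was the 1 member higher on both DT arrays.

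Genes of motile cilia had a median of -0.27. Both DT arrays lay below both PBS arrays for 13 of 19 and above for 0 (24.7% and 18.8% of all genes). Sntn, of the tip of the cilium, was at 0.50 and 0.47 with PBS and at 0.09 and -0.27 with DT (-0.57 ± 0.23, adjusted p = 0.310, limma), and the tektins Tekt4 and Tekt1 were at -0.53 ± 0.22 and -0.55 ± 0.24. All 3 were lowest on DT replicate 2, and the median of the list was -0.43 without DT replicate 1. Mesothelial genes, which mark the lining of the lung surface, had a median of -0.53 over 8 genes, with Bnc1 at -1.04 ± 0.34 and Upk3b at -0.75 ± 0.30. Atrial and pulmonary vein muscle genes, which enter through the heart muscle sleeve of the pulmonary veins, had a median of 0.71 over 16 genes, with Tcap at 1.04 ± 0.68. That median was 0.35 without DT replicate 2, and it turned to -0.35 in a fit with the columns of the slide as a term, chosen after seeing the data.

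Several lists had genes that passed in ARF-DTR lungs, where 29.3% of all genes passed, and smaller medians in wild type lungs. The 57 ribosomal protein genes had a median of 0.01 in wild type lungs, and 0 passed, while in ARF-DTR lungs the median was 0.38 and 55 passed. The 32 interferon-induced genes had medians of 0.02 and 0.59, with 12 passing in ARF-DTR lungs, and their wild type median ran from -0.23 without DT replicate 2 to 0.29 without DT replicate 1. The 17 alveolar type 2 genes had medians of 0.16 and 0.59, with 15 passing in ARF-DTR lungs, and their wild type median was -0.02 without DT replicate 1 and 0.41 without DT replicate 2. The difference between the genotypes passed for 1 ribosomal gene and for 0 of the other 2 lists (2.1% of all genes). The ARF-DTR comparison has 4 arrays a side and its PBS and DT arrays lie on different slides, so slide and DT cannot be told apart in it.

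Of the 46 genes that passed in wild type lungs, 34 had the same sign of the DT difference in ARF-DTR lungs, against 57.8% of all genes. Of these, 21 passed there as well, while 29.3% of all genes passed there in either direction. The 2 comparisons share no array, but they share the estimate of each gene's spread. A gene with a small estimate is favoured in both, so passing in 1 is not independent of passing in the other. In the wild type direction the median difference of the 46 genes in ARF-DTR lungs was 0.24. Most differences were larger in wild type lungs, by whose values the genes were chosen. Ccdc184 (-1.12 ± 0.14), Cst8 (-0.73 ± 0.13) and Nkx1-2 (-1.03 ± 0.22) fell in ARF-DTR lungs too, and Glb1 (0.18 ± 0.06), Gas2l3 (0.42 ± 0.13) and E2f7 (0.39 ± 0.12) rose. The difference between the genotypes passed for 23 of the 46 genes (9 higher and 14 lower with DT in wild type lungs), a count that the choice of genes by their wild type change favours. Within the slide, 13 of the 46 also differed between the DT arrays of the 2 genotypes (0.888% of all genes). That comparison holds the wild type DT arrays by which the genes were chosen, so the choice favours this count too. Plaur was at -0.18 ± 0.07 and Ch25h at -0.03 ± 0.12 in ARF-DTR lungs, and for both the difference between the genotypes passed (adjusted p of 0.00676 and 0.0259, limma). Mapk8ip2 was at -0.10 ± 0.26 there (adjusted p of the difference 0.00767, limma). On the slide that holds the DT arrays of both genotypes, ARF-DTR against wild type DT arrays differed for Ch25h (-0.87 ± 0.15, adjusted p = 0.0246, limma) but did not pass for Plaur (-0.10 ± 0.09, adjusted p = 0.637) or Mapk8ip2 (0.53 ± 0.32, adjusted p = 0.463).

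**Figure D5:**
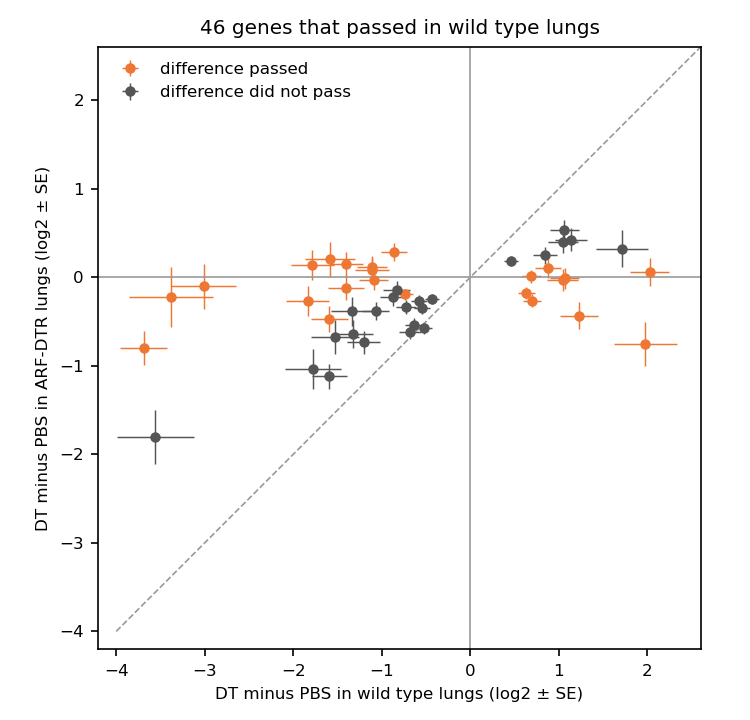
DT minus PBS in wild type lungs (horizontal) against DT minus PBS in ARF-DTR lungs (vertical), log2 ± SE, for the 46 genes that passed in wild type lungs; orange, genes for which the difference between the genotypes passed (23); grey, the others. The dashed line marks equal changes, and most points lie nearer to zero on the vertical axis than on the horizontal axis.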

How the data were processed

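The deposited files hold intensity values of 1 channel for each array, read with Agilent Feature Extraction (10.10.1.1, per the submitters' processing notes) with probes placed on mm9, per the file headers. The background-subtracted signal was used. The authors' series table holds log2 values, which were those of the log2 signal after subtraction of the array's 75th percentile, and served as an alternative. The authors' further steps were not given in the sources used here.

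Each array had 59305 spots and 55681 probes. Outlier spots (105 to 171 an array) were left out, 0 spots were saturated, and spots of a probe were averaged. Signals were put on a log2 scale and set against the array's own 75th percentile. Probes were kept where 4 or more of the 16 arrays had them well above background (37037), and the brightest probe was used where a gene had several (7565 genes). Of all probes, 27741 were named through a RefSeq accession, 3659 through a symbol and 24281 as in the file. Groups came from the sample titles.

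limma 3.58.1 (R 4.3.3, jsonlite 2.0.0, and version 1.17.8 of data.table) fitted 1 mean per group over all 16 arrays, with moderated variances, two-sided tests and Benjamini-Hochberg adjustment over 25574 genes. The fit was tested on simulated data. Values after ± are standard errors of this fit. The replicate numbers in the titles name samples. The deviations of same-numbered arrays correlated at 0.091, and no pairing was used. The number of arrays limits the precision.

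Named genes were those that passed 0.05, had a regular symbol, did not overlap between groups and were above background on both arrays of the brighter group, the 15 largest in each direction, filled by p where fewer passed. To these were added the toxin's target genes, Cdkn2a, Cdkn2b, Cdkn1a and up to 4 members of each list described, by p. The clock genes and Duox1, Sez6 and further members named in the text, which fell outside the rule, were named after their values were seen. Some genes that these rules would name are not reported here. The members of the comparison and the 65 lists (1081 genes) were chosen with earlier results of these data known. Alternatives were other scalings, background correction, filters, probes, samples and models.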

Additional observations from a re-analysis of the deposited data

Results flagged for a closer look

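For 14 named genes that passed in wild type lungs the DT difference was itself different between ARF-DTR and wild type lungs (interaction in limma over 16 arrays, adjusted p under 0.05). The genes were chosen by their wild type change, which enters the interaction, and slide and DT cannot be told apart in the ARF-DTR lungs. The interaction, ARF-DTR minus wild type on the log2 scale, was -2.73 for Pgbd5, -1.67 for Duox1, -1.08 for Impg2, -1.07 for Ch25h, -0.96 for Mark1, -0.81 for Plaur, -0.77 for Coq10b and -0.68 for Atp8b1, all higher with DT in wild type lungs. It was 2.91 for Mapk8ip2, 1.57 for Sez6, 1.55 for Ccnjl, 1.12 for Krtap4-9, 1.07 for Eif2s3y and 0.54 for Slco1c1, all lower with DT in wild type lungs. Between the DT arrays of the genotypes, which share a slide, 4 of the 14 differed (Ccnjl, Sez6, Ch25h and Slco1c1), and for the other 10 the adjusted p ran from 0.074 to 0.672 (limma). That comparison also holds the wild type DT arrays by which the genes were chosen. Adjusted p of the interaction ran from 0.00336 (Mark1) to 0.0437 (Krtap4-9). In ARF-DTR lungs Pgbd5 (-0.75), Duox1 (-0.44) and Mark1 (-0.27) were on the other side of zero and passed there too. Ccnjl was at 0.15 in ARF-DTR lungs. Duox1 was not well above background on any wild type array, and Pgbd5, Impg2, Mapk8ip2, Sez6 and Krtap4-9 were not on either array of the dimmer wild type group.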

How the results depend on the processing

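The direction of the 46 genes was the same in all settings in which they were measured, but the number that passed was not. The groups of each of these genes did not overlap, so leaving out 1 array could not change its direction. The other settings reuse the 4 wild type arrays by which the genes were chosen, so the shared direction is no separate support. Against 15 higher and 31 lower, normexp background correction gave 6 and 14, the median of each array 12 and 16, no filter 24 and 30, a filter on the wild type arrays 35 and 62, the 8 arrays of the slide 3 and 4 (0 and 2 of them among the 46), the 4 wild type arrays 0 and 0 (2532 with an unadjusted p under 0.05), and the columns of the slide as a term, added after seeing the data, 3 and 7. Quantile normalization gave 17 and 23, values processed by the authors 17 and 31, the mean of probes 14 and 34 and a variance trend 19 and 32. With the replicate number as a block, the counts were 24 and 42 over 16 arrays and 0 and 0 over the 4 wild type arrays (2620 with an unadjusted p under 0.05); the numbers only name samples. Leaving out 1 wild type array gave 9 to 128 higher and 61 to 104 lower genes, and between 3 and 23 of the 46 were among those of 1 direction. The lone array left is assumed to vary like the other groups. Of the 46 genes, 13 differed within the slide between the DT arrays of the 2 genotypes, and 32 between the DT arrays of ARF-DTR lungs and the PBS arrays of wild type lungs, against 23 by the interaction. Each of these comparisons holds wild type arrays by which the genes were chosen, which favours its count. The causes of the shifts between settings were not tested. Signals near background leave at most a lower bound for 16 of the 46 changes.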

Other observations

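Steroid sulfotransferases of the Sult2a family, which add sulfate to bile acids and steroids, had a median of -1.36 over 5 measured genes, and 0 passed. Sult2a1 was at -1.90 and -1.76 with PBS and at -3.95 and -2.45 with DT (-1.37 ± 0.57, adjusted p = 0.331, limma), and Sult2a8 was at 0.10 and 0.07 with PBS and at 0.12 and 0.13 with DT. DT replicate 1 was the lowest array for Sult2a1, and the median was -0.32 without it and -2.41 without DT replicate 2. Sult2a4, Sult2a6 and Sult2a2 were well above background on 1 of the 2 DT arrays, and these genes are near-identical copies whose probes may read each other.

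Among CC chemokines 0 of 15 measured genes passed and the median was 0.20, or 0.08 without PBS replicate 1. Ccl11, which draws eosinophils, was at -1.48 and -1.42 with PBS and at -0.60 and -0.34 with DT (0.98 ± 0.27, adjusted p = 0.155, limma). Ccl8, a monocyte attractant, was at 1.36 and 1.98 with PBS and at 3.44 and 2.71 with DT (1.40 ± 0.61, adjusted p = 0.353, limma). Both DT arrays of both genes lay above both PBS arrays, as for 18.8% of all genes. Of 17 CXC chemokines, Cxcl16 was 0.46 ± 0.16 higher with DT and Cxcl5 1.54 lower (-1.54 ± 0.85). Of the genes that passed without a regular symbol, the largest change was at the probe for a long noncoding region of chromosome 2 in the array design (mm9, probe at chr2:25783620-25783679), which was at -2.81 and -2.70 with PBS and not well above background with DT (at least 4.86-fold lower, adjusted p = 9.2e-05, limma), and a further probe of that region gave -0.84 ± 0.21.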
